A study of Mus musculus with 2 samples.

Results

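The cells described here are erythroid cells with high levels of interferon-induced transcripts, taken from a library of mouse leukemia progenitors treated with AG-120. They are the cells with at least 1 UMI of Klf1, the master transcription factor of the red cell lineage, in which 6 interferon-induced genes (Isg15, Ifit1, Ifit3, Oasl2, Rsad2 and Irf7) summed to at least 400 CPM. A UMI is a molecular tag that marks 1 captured transcript, and CPM stands for UMIs per 1000000 UMIs of the cell or, for a group, of its summed cells. Of 3224 Klf1 cells in the AG-120 library, 177 met this rule, and the other 3047 are the cells they are compared with. They were 177 of 8162 barcodes in the series.

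The study profiled single cells from mice carrying the leukemia named I1DN, sorted as positive for cKit and negative for Cd11b, to ask how much the response to an inhibitor of mutant IDH1 varies from cell to cell. Mice were given AG-120 (ivosidenib) or vehicle for 5 days, and each treatment has 1 library; the number of mice behind each is not given in the sources used here. The comparisons below are between cells of 1 library and have no replicate, so no test was made, a higher or lower gene is described at 1.5-fold or more, and every interval covers counting error only. The cells were chosen by the summed level of the 6 gating genes. These values are a description and support nothing else, and the same holds for every gene that varies with them in these cells.

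Interferons are secreted proteins that bind cell surface receptors and switch on a shared set of genes through JAK kinases and STAT transcription factors. Type I interferon (alpha and beta) acts through a complex with STAT2 and IRF9 that binds the interferon-stimulated response element, whereas interferon gamma acts mainly through another element. The induced genes include antiviral proteins, the ubiquitin-like modifier ISG15 and its enzymes, immune GTPases and the machinery that shows peptides on MHC class I. Red cell progenitors carry receptors for these interferons, and interferon gamma is known to restrain red cell production.

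The core letters of the response element stand close to the start of several genes that were high in these cells. The 150 bases before the start are shown for the 5 genes with the highest ratios among those whose promoter holds the letters TTTC, any 2 bases and TTTC again, read on either strand (GAAA, 2 bases and GAAA on the other). Sequences are from RefSeq on GRCm38.p6, 5′ to 3′ in the gene's direction, and capitals mark the match.
Tgtp1, chr11:48992247-48992396, minus strand: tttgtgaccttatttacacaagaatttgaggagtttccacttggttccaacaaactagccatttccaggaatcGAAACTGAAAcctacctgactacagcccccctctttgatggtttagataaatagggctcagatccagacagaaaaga
Gbp2, chr3:142620513-142620662, plus strand: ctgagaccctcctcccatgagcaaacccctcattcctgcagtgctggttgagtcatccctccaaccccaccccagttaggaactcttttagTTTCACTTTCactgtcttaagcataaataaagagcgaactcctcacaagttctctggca
Irgm2, chr11:58214827-58214976, plus strand: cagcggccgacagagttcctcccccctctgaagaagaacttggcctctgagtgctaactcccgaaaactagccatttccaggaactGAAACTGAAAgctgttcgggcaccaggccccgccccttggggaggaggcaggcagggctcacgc
Oas3, chr5:120777660-120777809, minus strand: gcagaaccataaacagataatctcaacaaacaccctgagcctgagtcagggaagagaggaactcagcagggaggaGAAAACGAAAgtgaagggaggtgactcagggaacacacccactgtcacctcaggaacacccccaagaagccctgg
Ifi203, chr1:173942493-173942642, minus strand: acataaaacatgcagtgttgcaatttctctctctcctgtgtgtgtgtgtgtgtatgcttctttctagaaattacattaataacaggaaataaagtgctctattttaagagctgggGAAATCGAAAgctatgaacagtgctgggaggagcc

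Each of these windows held 1 match. It began 77 bases before the start of Tgtp1, 59 before Gbp2, 64 before Irgm2, 75 before Oas3 and 35 before Ifi203. Gbp2 carried the letters in the TTTC orientation and the other genes in the GAAA orientation. Tgtp1 and Irgm2, both immunity-related GTPases on chromosome 11, shared a run of 20 bases (aaactagccatttccaggaa) ahead of the match, while no other pair among the 5 shared more than 9 bases.

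The letters were searched in 300 bases, from 250 before to 50 after each start, and 1079 of 27025 genes with such a promoter in RefSeq held them (3.99%). Among measured genes the share was 3.88% (217 of 5592). Of the 115 genes described below as higher in interferon-high cells, 91 had a promoter in the table and 33 of these held the letters (36.3%), against 3.34% of the measured genes under 1.5-fold (184 of 5501). By list, they were found in 8 of 9 GTPase genes, 10 of 18 antiviral effectors, 5 of 15 MHC class I genes, 1 of 11 other interferon-stimulated genes and 0 of 7 genes of the ISG15 list. In maturing erythroid genes they were found in 0 of 13, and in G2/M genes in 2 of 45. A match describes letters, not a bound site, and Usp18, Zbp1 and Rtp4 are not in the table. The 115 genes were picked by ratios that vary with the gate, so these shares are a description only. Of the 115, 81 reached 10 CPM in other Klf1 cells, and no share was computed for these alone. The 5 genes shown above stood below 10 CPM there, at 2.51 to 5.06.

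The interferon-high cells held between 400 and 4744 CPM of the gating genes, with a median of 666, and the other Klf1 cells between 0 and 399.6 with a median of 37.4. These levels rest on few transcripts. The median interferon-high cell held 16 UMIs of the 6 genes (2 to 173), and 1140 of the other cells held 0. The threshold cuts through a continuous range: 64 cells lay between 300 and 400 CPM and 46 between 400 and 500. The nearest cells outside held 391 to 399.6 CPM and the nearest inside 400 to 404, each from 4 to 16 UMIs.

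**Figure D1:**
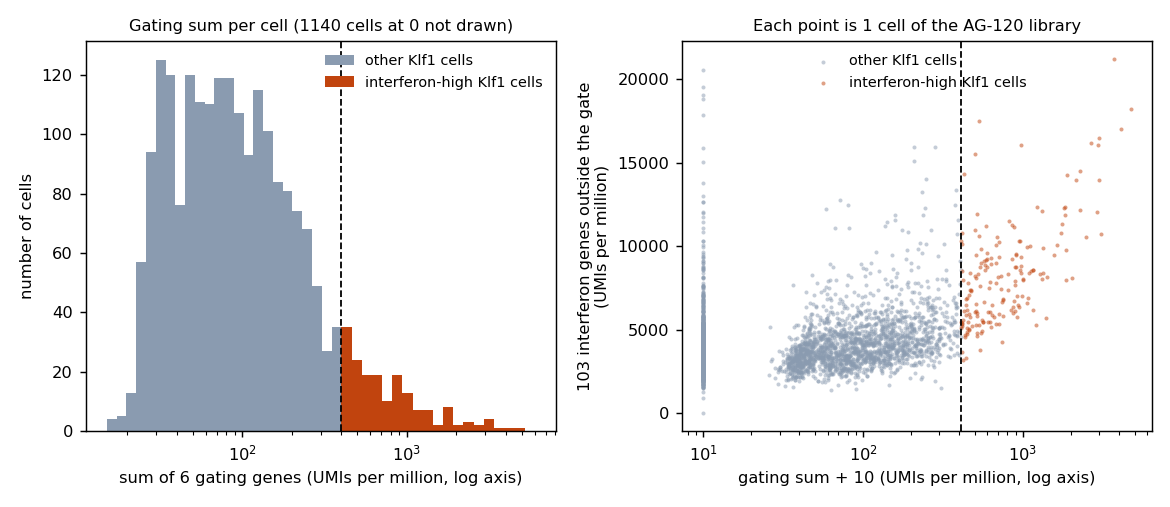
Left, number of Klf1 cells of the AG-120 library by the summed gating genes (UMIs scaled as CPM, log axis; dashed line, threshold of 400); right, each cell's sum of 103 interferon genes outside the gate (CPM) against its gating sum plus 10. The gating sum has no gap at the threshold, and the median of the 103 genes was 8005 in interferon-high and 3754 in other cells, with overlap.

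Among the gating genes, Isg15, the ubiquitin-like modifier, gave 54.1% of the gating UMIs and was seen in 175 of 177 cells. Irf7, the transcription factor that amplifies type I interferon production, gave 20.4% and was seen in 166. Oasl2, of the oligoadenylate synthetase family, was seen in 131 cells, Ifit1, which binds foreign RNA, in 89, and Rsad2, the antiviral enzyme viperin, in 80. Ifit3 added almost nothing, with 2 UMIs in all 177 cells, and reads of Ifit3 and its near copy Ifit3b may not be separable. The gate was carried by 1 gene alone in 4 cells, by 2 genes in 22, by 3 in 57, by 4 in 48, by 5 in 44 and by all 6 in 2.

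The erythroid label held against markers the rule did not use. Gata1, the partner of Klf1, stood at 199 CPM in interferon-high cells and 204 in other Klf1 cells, against 75.6 in AG-120 cells without Klf1. Ermap and Rhd, red cell surface proteins, stood at 182 and 149 CPM, against 185 and 134 in other Klf1 cells and 21.5 and 12.3 without Klf1. Blvrb and Car2, enzymes abundant in red cell precursors, were likewise close between the Klf1 groups, at 939 against 889 and 714 against 699. Of the 177 cells, 114 had UMIs of all 6 further erythroid markers, 40 of 5, 17 of 4 and 6 of fewer. Klf1 itself was a single UMI in 24 of them, with a median of 4.

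Markers of other cell types were scarce. The lymphoid markers Cd79a, Cd3e, Cd3g and Siglech were all at 0, as were 4 of 5 neutrophil markers, and the 5 macrophage markers summed to 0.945 CPM. The 5 granulocyte-monocyte progenitor markers (Mpo, Elane, Ctsg, Prtn3 and Ms4a3) summed to 38.0 CPM in interferon-high cells, 121 in other Klf1 cells and 9591 in cells without Klf1, and Elane was at 0. Megakaryocyte markers summed to 22.4 CPM with Ppbp at 0, and basophil and eosinophil markers to 16.3 with Prg2, Epx and Mcpt8 at 0. Each of these sums was lower than in other Klf1 cells. A wider list of 18 lymphoid and plasmacytoid dendritic cell genes was not lower: it summed to 614 against 279 CPM, where 2 of 4 measured genes were higher, the interferon-induced Bst2 and Cd74, whose UMIs lay almost wholly in 1 cell. Per cell, the progenitor markers ran from 0 to 1724 CPM in interferon-high and from 0 to 17852 in other Klf1 cells. Without cells holding 2 or more UMIs over 6 myeloid genes (Camp, S100a8, Mpo, Elane, C1qa and Lyz2), 173 interferon-high cells remained, 116 genes were higher and 8 lower, against the 115 and 14 given below. Median depth was 23925 UMIs and 4512 genes per interferon-high cell against 27408 and 4816 in other Klf1 cells, at 2.55% and 2.52% mitochondrial UMIs. The 2 libraries shared 20 cell barcodes, 1 of them an interferon-high cell.

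Outside the gate few genes differed, and most of those were higher in interferon-high cells. Of 6975 measured genes (mean of both groups at least 10 CPM), 115 were higher in interferon-high cells (1.65%) and 14 lower (0.201%), and the median log2 ratio over all of them was −0.026. Of the 115, 66 belong to the lists of interferon-stimulated, MHC class I, signalling and sensor genes, and none of the 14 lower genes does. A gene can pass the level filter through interferon-high cells alone. With at least 10 CPM in other Klf1 cells required, 81 of 6862 genes were higher (1.18%).

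**Figure D2:**
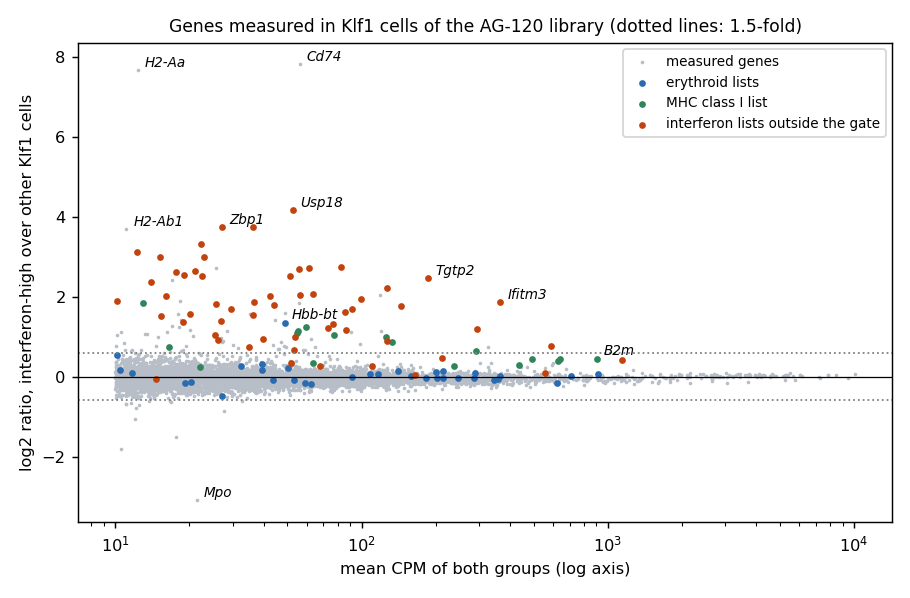
Log2 ratio of CPM, interferon-high over other Klf1 cells, against the mean CPM of both groups (log axis), with 1 point for each of 6975 genes. Of the 57 measured interferon genes 49 lie above the 1.5-fold line, erythroid genes lie within the 1.5-fold lines except Hbb-bt, and Cd74, H2-Aa and H2-Ab1 rest on 1 cell.

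Interferon-stimulated genes outside the gate were sorted into 5 lists by role, which together hold 103 genes of the table. Of these, 57 were measured, 49 were higher, 0 lower and 8 neither, with a median log2 ratio of 1.77. Summed over all 103, they stood at 8058 CPM in interferon-high and 3891 in other Klf1 cells, a ratio of 2.07 (2.05 to 2.09). Of the 42 that reached 10 CPM in other Klf1 cells, 34 were higher. The counts and medians of single lists below, sensors included, hold genes that passed the level filter through interferon-high cells alone. Usp18, Parp14, Zbp1, Oas3, Tgtp1 and Ddx58 are examples, each under 10 CPM in other Klf1 cells. For such genes a higher level in interferon-high cells follows from the filter.

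Cell by cell, the 103 genes summed to between 3181 and 21195 CPM in interferon-high cells, with a median of 8005, and to between 0 and 20530 in other cells, with a median of 3754. The groups overlapped. Only 3 interferon-high cells lay at or below the median of the others, 23 lay above the others' 99th percentile of 11330, and 100 other cells lay above the interferon-high median.

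In the list of ISG15 enzymes and PARP and DTX proteins, 11 of 11 measured members were higher, with a median log2 ratio of 1.69. Usp18 (chromosome 6, 121245906 to 121270917, plus strand, GRCm38), the protease that removes ISG15 and also restrains the type I receptor, had the highest ratio among measured genes outside the gate, leaving aside 2 MHC class II genes that rest on 1 cell. It stood at 99.9 CPM against 5.54, a ratio of 18.03 (15.8 to 20.6). Per cell it ran from 0 through a median of 47.9 to 850 CPM in interferon-high cells, and from 0 through 0 to 260 in the others. Usp18 was thus still unseen in 70 of the 177 cells. Ube2l6, the conjugating enzyme for ISG15, stood at 223 against 65.5 CPM (3.41-fold), and Uba7, the activating enzyme, was 3.22-fold higher. Parp14, an ADP-ribosyltransferase, stood at 38.5 against 6.64 CPM (5.80-fold).

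Immune GTPases, which attack the membranes around intracellular pathogens and respond strongly to interferon gamma, were higher in 9 of 9 measured members of a list of 19, with a median log2 ratio of 2.47. Tgtp1 stood at 67.8 against 5.00 CPM (13.6-fold) and Tgtp2 at 317 against 57.2 (5.54-fold), although these near-identical neighbours may trade reads. Irgm2, at 21.97 against 2.51 (8.74-fold), overlaps Igtp, at 107 against 16.1 (6.64-fold), and the same limit holds for that pair. Gbp2, a guanylate-binding protein, stood at 40.6 against 4.04 (10.1-fold). Tgtp1, Irgm2, Gbp2 and Gbp3 (4.49 CPM in other Klf1 cells) passed the level filter through interferon-high cells alone. Tgtp2 ran per cell from 0 through a median of 274 to 1616 CPM, against 0, 19.6 and 1668 in other cells. Its highest single cell was therefore outside the gate. Summed over the list, the GTPases stood at 1075 against 204 CPM, a ratio of 5.27 (5.10 to 5.45).

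Antiviral effectors were higher in 15 of 19 measured members, with a median log2 ratio of 1.62. Zbp1 (chromosome 2, 173206612 to 173218923), a sensor of Z-form nucleic acid that can trigger cell death, stood at 50.6 against 3.78 CPM, a ratio of 13.4 (11.2 to 16.0). Oas3, an oligoadenylate synthetase that activates RNA decay, was 8.03-fold higher, and Oasl1, a related protein, 6.33-fold. Trim30a, an interferon-induced TRIM protein, was 6.45-fold higher. The IFITM proteins, which block virus entry at membranes, differed among themselves. Ifitm3 stood at 573 against 158 CPM (3.64-fold), whereas Ifitm2 stood at 575 against 542 (1.06-fold) and Ifitm1 had a ratio of 1.197. Per cell Ifitm3 ran from 0 through a median of 440 to 2840 CPM, against 0, 111 and 2973 in other cells. Bst2, the tetherin that holds budding viruses, was higher at 409 against 177 CPM (2.31-fold).

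Several effectors were too scarce to be measured by the level filter, and the following 4 were chosen after their values were seen. Mx1, the GTPase that blocks influenza viruses, had 53 UMIs in the 177 interferon-high cells and 11 in the other 3047. Iigp1, an immunity-related GTPase, had 47 and 26 UMIs, Oas2 68 and 97, and Cxcl10, a chemokine induced by interferon gamma, 63 and 106. Of all 46 unmeasured genes of the 5 lists, 13 had 0 UMIs in interferon-high cells, 32 had a higher CPM there and 1 a lower CPM, many of them from a few UMIs.

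Of the other interferon-stimulated genes, 12 of 15 measured were higher. Rtp4 (chromosome 16, 23520291 to 23614222), a chaperone of receptors at the membrane, stood at 144 against 21.4 CPM (6.71-fold). Per cell it ran from 0 through a median of 120 to 859 CPM, against 0, 0 and 598 in the others. Ly6e, a lipid-anchored surface protein, is among the 3 that were under 1.5-fold, with a per-cell median of 1209 against 916 CPM. In the IFI200 family of nuclear DNA-binding proteins, Ifi203 stood at 40.6 against 5.06 CPM (8.03-fold) and Mndal was 3.69-fold higher, while Aim2, the sensor of the DNA inflammasome, had a ratio of 0.970 (0.737 to 1.25).

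**Figure D3:**
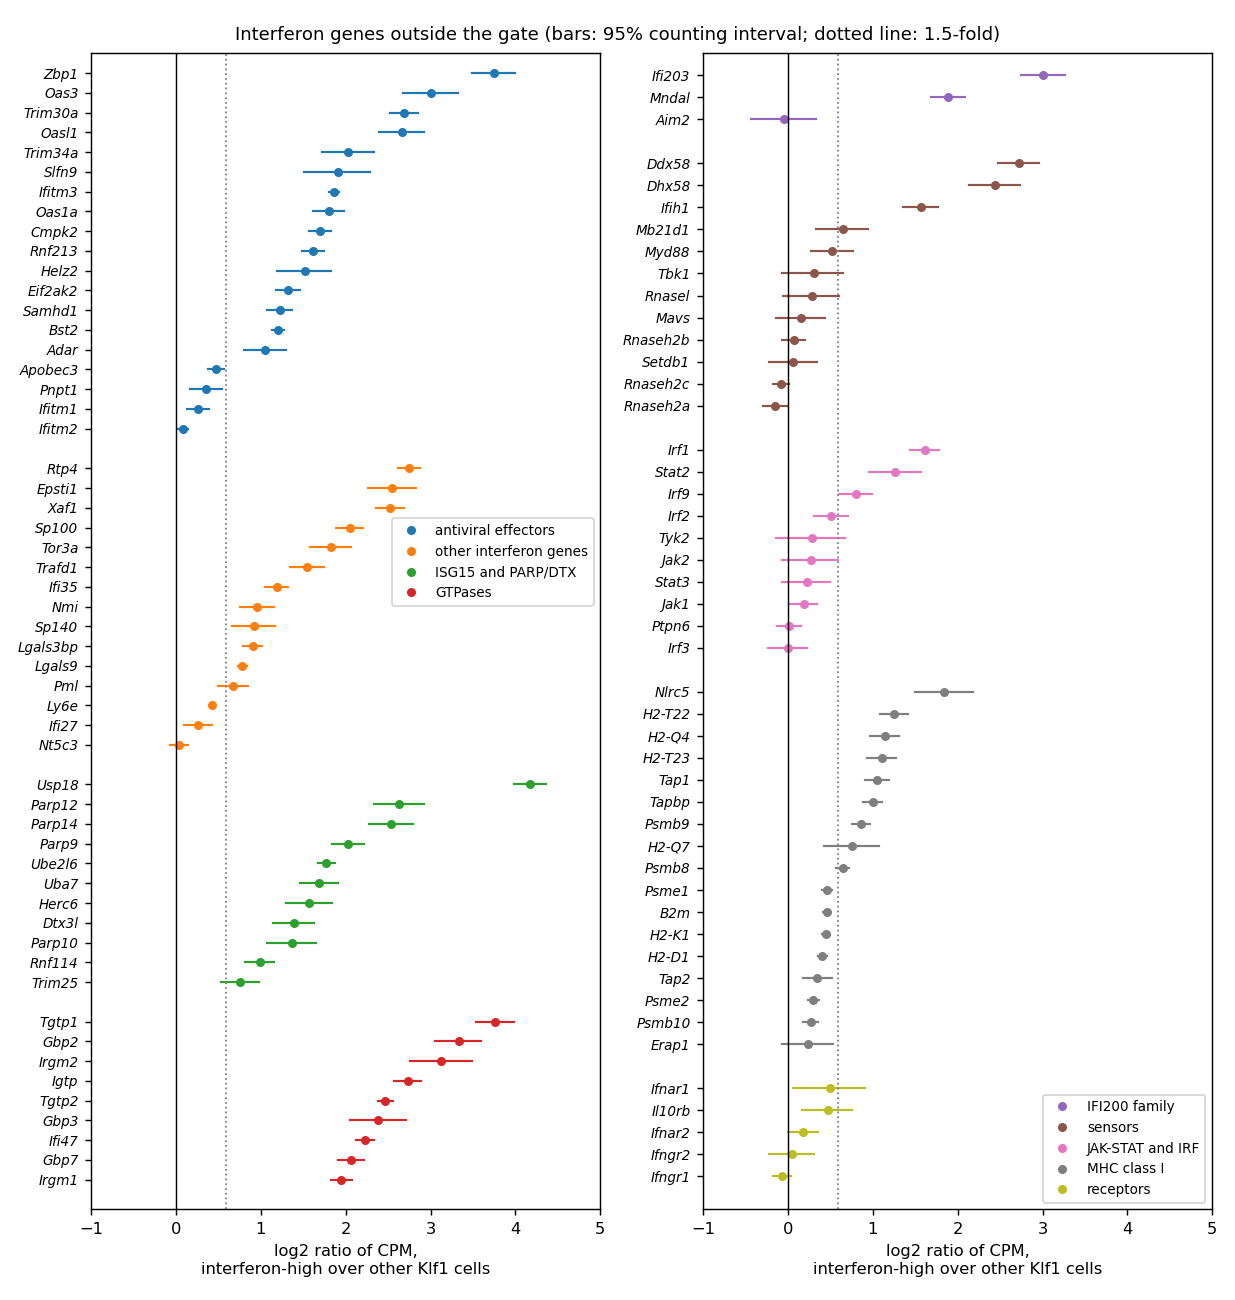
Log2 ratio of CPM, interferon-high over other Klf1 cells, for measured genes of the interferon lists, with 95% counting intervals as bars, colours for lists and a dotted line at 1.5-fold. GTPase and ISG15 genes all lie beyond the line, MHC class I genes straddle it, and the receptors lie short of it.

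The transcripts of the interferons themselves were all but absent. The 21 interferon genes of the table, Ifnb1 and Ifng among them, summed to 0 UMIs in interferon-high cells, where 3 counts in 4232926 UMIs are the floor, and to 5 UMIs of Ifnz in other Klf1 cells. The receptors were close between the groups. Ifnar1 stood at 12.05 against 8.55 CPM, a ratio of 1.41. Ifnar2 had a ratio of 1.13 and Ifngr1 of 0.953. Of 5 measured receptor genes 0 reached 1.5-fold, beside 1.65% higher and 0.201% lower over all measured genes. The sum of the receptor list had a ratio of 1.03 (0.976 to 1.09).

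Downstream of the receptors, the transcription factors Irf1, Irf9 and Stat2 were higher and the kinase Jak1 was not. Irf1, a factor that interferon gamma induces strongly, stood at 73.9 against 24.2 CPM, a ratio of 3.05 (2.70 to 3.44). Per cell Irf1 ran from 0 through a median of 35.0 to 752 CPM, against 0, 0 and 1087 in other cells, so the groups overlapped. Irf9, the DNA-binding part of the type I complex, was 1.74-fold higher. Stat2, chosen after its value was seen, was 2.41-fold higher. Jak1 had a ratio of 1.14, and Irf3, the factor that starts interferon production after sensing, stood at 40.2 against 40.3 CPM.

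Sensors of foreign nucleic acid were higher in 4 of 12 measured members. The RNA sensors Ddx58 (RIG-I), at 44.4 against 6.73 CPM (6.60-fold), and Ifih1 (MDA5), 2.96-fold, were among them, with Dhx58 (5.42-fold) and Mb21d1 (the DNA sensor cGAS, 1.56-fold), these last chosen after their values were seen. Their adaptors lay lower, with Mavs at 1.11-fold and Myd88 at 1.44-fold. The subunits of RNase H2, which clears RNA from DNA, were close to equal: Rnaseh2a had a ratio of 0.902 (0.819 to 0.992) and Rnaseh2b of 1.05.

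MHC class I genes were higher in 9 of 17 measured members, with a median log2 ratio of 0.65. The shared light chain B2m stood at 1045 against 761 CPM (1.37-fold) and the heavy chain H2-K1 at 742 against 544 (1.36-fold), both under the 1.5-fold line. B2m ran per cell from 265 through a median of 1015 to 2264 CPM, against 0, 756 and 3754 in other cells, so the groups overlapped widely. The immunoproteasome subunits Psmb8 and Psmb9, which cut peptides for presentation, were 1.57-fold and 1.82-fold higher. Tap1, the peptide transporter, was 2.07-fold higher and Nlrc5, the activator of class I transcription, 3.59-fold, both chosen after their values were seen. At 20.3 against 5.66 CPM, Nlrc5 passed the level filter through interferon-high cells alone.

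MHC class II transcripts came from a single cell. Cd74, the class II invariant chain, had the highest ratio of all measured genes, at 226, but 471 of its 472 UMIs lay in 1 of the 177 cells. The same cell held 103 of 104 UMIs of H2-Aa and 81 of 87 of H2-Ab1, the class II chains. It had 20444 UMIs in total and a gating sum of 489 CPM. Over the 7 erythroid markers it had 2 UMIs, 1 of them of Klf1, so the erythroid label is weakest there. Without it Cd74 had a ratio of 0.482 (0.0119 to 2.84) and H2-Ab1 of 0.897 (0.323 to 2.01). Higher values of Lgals3 (2.05-fold) and Fabp5 (1.67-fold), chosen after their values were seen, were below 1 without this cell, at 0.959 and 0.892.

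Erythroid genes differed little, as did measured genes at large, of which 1.65% were higher and 0.201% lower. Counts near 0 in a list are therefore not particular to it. Of 15 measured early erythroid and progenitor genes, 0 were higher and 0 lower, with a median log2 ratio of −0.040: Myb, Lmo2 and Gfi1b, factors of early erythroid cells, had per-cell medians of 233, 267 and 133 CPM against 233, 276 and 134. Of 19 measured maturing erythroid genes, 1 was higher and 0 lower, with a median of 0.12. The exception was the globin gene Hbb-bt, chosen after its value was seen, at 70.2 against 27.5 CPM. Of its 297 UMIs, 184 lay in 1 cell, without which its ratio was 0.976 (0.801 to 1.18). The heme enzymes Alad and Urod had per-cell medians of 324 and 194 CPM, against 342 and 183. Weighting the other Klf1 cells to the same spread of maturing erythroid transcripts left 118 genes higher and 12 lower.

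G2/M genes were slightly lower in sum and S phase genes were not past 1.5-fold in either direction. Of 39 S phase genes 0 were higher or lower and the median log2 ratio was −0.0045. Of 51 measured G2/M genes 1 was lower, the spindle checkpoint kinase Ttk, and the median was −0.17. At 8.98 against 14.1 CPM, Ttk passed the level filter through the other Klf1 cells alone. Ttk had a log2 ratio of −0.65, but of −0.32 with the gate at 200 CPM, −0.48 without Isg15 in the gate and −0.57 with other cells weighted to the same depth, all short of 1.5-fold. Summed, the G2/M list stood at 6951 against 7808 CPM, a ratio of 0.890 (0.880 to 0.901), with per-cell medians of 5773 and 7004. Top2a and Ube2c, genes of mitosis, had per-cell medians of 126 and 82.4 CPM against 199.6 and 137, but their pooled ratios were nearer to 1, at 0.935 (0.877 to 0.996) and 0.820 (0.775 to 0.867). Of 25 ribosome biogenesis genes, including Npm1 and Ncl, 0 reached 1.5-fold and the median was −0.14. The counts of these lists stand beside 1.65% higher and 0.201% lower over all measured genes.

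Other stress and death programmes were near the level of other Klf1 cells. Measured were 8 of 15 listed cell cycle inhibitors, 16 of 19 heat shock and unfolded protein genes and 4 of 15 NF-kB genes. Each of these lists had 0 higher and 0 lower measured members, with medians of −0.037, −0.064 and 0.11. Such counts are near the share over all measured genes, 1.65% higher and 0.201% lower. Among 12 measured p53 and apoptosis genes, 2 caspases were higher. Casp8, which starts receptor-driven death, stood at 56.5 against 35.1 CPM (1.61-fold). Casp4, chosen after its value was seen, stood at 13.9 against 7.78 CPM (1.79-fold). It passed the level filter through interferon-high cells alone, so its higher level follows from the filter. Trp53 had per-cell medians of 443 and 403 CPM. Outside all lists, Serpina3g, a protease inhibitor induced by interferon gamma, was 3.60-fold and Isg20, an interferon-induced exonuclease, 2.22-fold higher, both chosen after their values were seen.

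**Figure D4:**
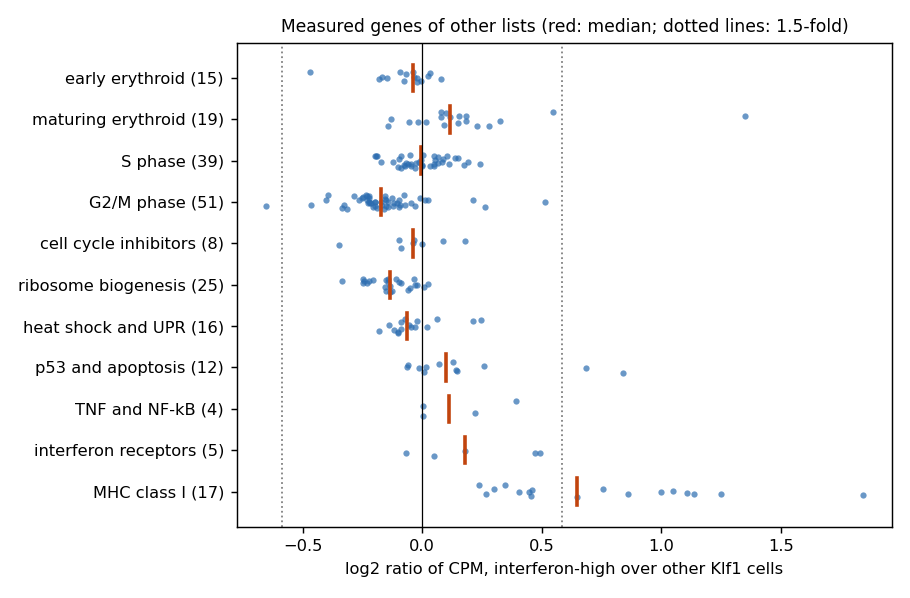
Log2 ratio of CPM, interferon-high over other Klf1 cells, for measured genes of 11 lists (number in brackets), with red bars at medians and dotted lines at 1.5-fold. Erythroid, cycling and stress genes cluster near 0, the G2/M median is −0.17, and the MHC class I median is 0.65.

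The 14 lower genes were led by granule genes of myeloid progenitors. A gene can also pass the level filter through the other Klf1 cells alone, and a lower level in interferon-high cells then follows from the filter. Mpo, Ctsg, Ms4a3, Perp and Ttk are examples, each under 10 CPM in interferon-high cells. Mpo, the peroxidase of neutrophil granules, stood at 4.49 against 38.3 CPM, a ratio of 0.117. It was seen in 8 of 177 interferon-high cells and in 151 of 3047 other Klf1 cells. Its per-cell median was 0 in both groups, and the highest cell held 328 CPM against 7924. Ctsg and Prtn3, granule proteases, stood at 4.72 against 16.4 and 19.6 against 35.4 CPM. They were seen in 8 and 58 interferon-high cells, and in 214 and 1151 of the others. Without the cells holding 2 or more UMIs of the 6 myeloid genes, Ctsg had a log2 ratio of −0.54 and Prtn3 of −0.15, both short of 1.5-fold, while Ms4a3 was still lower by more than 1.5-fold. That filter counts Mpo itself, so the log2 ratio of 0.17 that Mpo has under it is set by the filter and is no measure of the gene. With at least 2 Klf1 UMIs required, Ms4a3 had a log2 ratio of −0.578 and Prtn3 of −0.349, both short of 1.5-fold. The 39 UMIs of Ms4a3 in interferon-high cells lay in 7 cells, with 64.1% in 1 of them. Another lower gene was Perp, an effector of p53, at 7.80 against 16.3 CPM, which had a log2 ratio of −0.42 with the gate at 200 CPM.

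The interferon lists were graded across all Klf1 cells, below the threshold as well as above it. Cells were put into 6 bins by the gating sum: 0 (1140 cells), up to 100 (1160), to 200 (489), to 400 (258), to 800 (106) and above (71). From the lowest to the highest bin, the GTPase list summed to 127, 178, 294, 488, 897 and 1347 CPM, and the ISG15 list to 164, 200, 270, 351, 540 and 988. The effectors stood at 1431, 1379, 1633, 1863, 2477 and 3636, so the cells at 0 and up to 100 were out of order. Usp18 itself went from 2.59 through 4.50, 8.56, 17.6 and 49.5 to 177 CPM. The receptors stood at 301 to 324 CPM over the bins, and the G2/M list lay between 6717 and 7974, lowest in the top bin. Median depth per bin ranged from 22275.5 to 29491.5 UMIs without following that order.

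**Figure D5:**
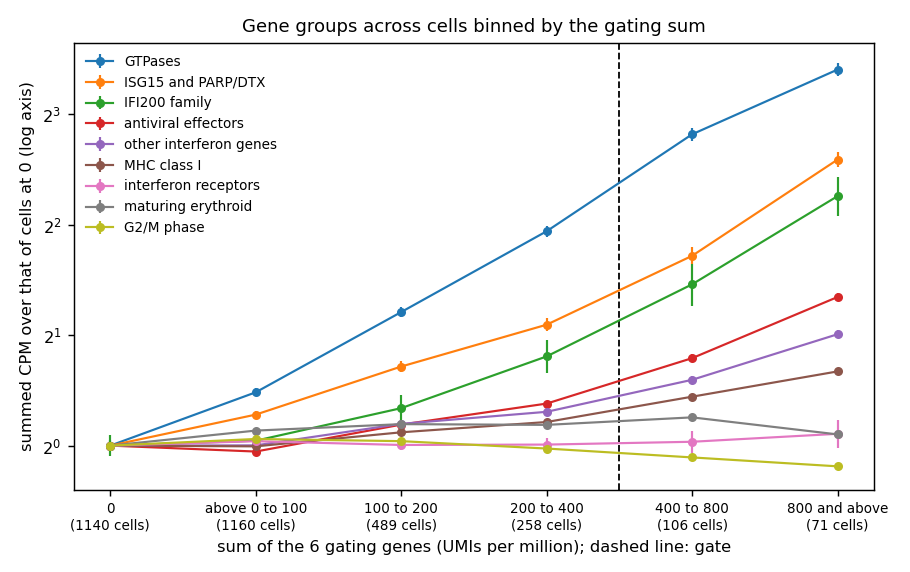
Summed CPM of 9 gene lists in 6 bins of Klf1 cells by the gating sum (CPM), divided by the value in cells at 0, on a log axis; bars are 95% counting intervals and the dashed line is the gate. GTPases (127 to 1347 CPM) and ISG15 genes (164 to 988) climb across the bins, receptors (301 to 324) do not.

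The same gate also picked cells without a Klf1 UMI. In the AG-120 library 34 of 532 cells without Klf1 passed it (6.39%, 4.47 to 8.82), close to the 5.49% of Klf1 cells (4.73 to 6.33). These 34 cells were shallow, at a median of 9675.5 UMIs against 17010 in the others without Klf1. Against those others, 12 of 15 measured maturing erythroid genes were higher and 0 lower, and 8 of 8 megakaryocyte genes were higher. Per cell, the maturing erythroid list had a median of 1023 CPM against 426. The megakaryocyte list summed to 2979 against 339 CPM, but its per-cell median was lower, at 75.8 against 155. Its highest gated cell held 47123 CPM, so the higher megakaryocyte values do not describe the typical gated cell. Of all measured genes, 15.7% were higher. Whether some are erythroid cells in which Klf1 went unseen was not tested. In the vehicle library 5 of 342 Klf1 cells passed (1.46%, 0.476 to 3.38), and 48 of all 3914 cells (1.23%, 0.906 to 1.62), against 211 of 3756 in the AG-120 library (5.62%, 4.90 to 6.40). The vehicle library was shallower, at a median of 13156.5 UMIs per cell against 25681.5. With every cell thinned to 10000 UMIs, 190 of 2708 AG-120 Klf1 cells passed (7.02%, 6.08 to 8.04) and 4 of 219 vehicle Klf1 cells (1.83%, 0.500 to 4.61). This left out 252 AG-120 and 1156 vehicle cells as too shallow. Of 170 interferon-high cells deep enough, 128 passed again when thinned, and 62 other cells passed newly. With 1 library per treatment, these shares compare libraries, and treatment and library cannot be told apart.

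The vehicle library was not used by the rule, but its cells were gated here by the same 6 genes. These gated cells carried much of the same interferon programme, although 43 of the 48 had no Klf1 UMI. Of 112 genes higher in the AG-120 erythroid cells, leaving out gene models, 104 were measured in the 48 gated vehicle cells against the other 3866, and 84 were higher there and 1 lower, where 8.91% of all measured genes were higher and 9.17% lower. In the 34 gated AG-120 cells without Klf1, 76 of 106 were higher and 4 lower, with 15.7% and 12.1% of all genes. The 5 interferon lists had medians of 1.97 in vehicle and 1.38 in cells without Klf1, beside 1.77 in the erythroid cells. Zbp1 stood at 59.2 against 1.22 CPM in vehicle cells, and Rtp4 at 283 CPM, 40.4-fold above the other cells. Usp18 stood at 229 against 38.7 CPM there, a ratio of 5.92. The groups differ in cell makeup, and no difference between these ratios was tested.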

How the data were processed

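UMI counts per gene and barcode were deposited by the authors as whole numbers with no normalization, per the file headers. The submitters' processing notes name Cell Ranger 3.1.0, Seurat 4.0.4 and mm10/GRCm38, whereas the headers give software 3.0.2; the protocol names a 5′ kit and the design text a 3′ platform. The vehicle library held 4146 barcodes and 56821757 UMIs, the AG-120 library 4016 and 96919988. A cell was kept with 500 or more genes and no more than 10% of UMIs from mitochondrial genes (3914 and 3756 cells). No doublet caller was run, so doublets stayed in. Gene positions came from GENCODE mouse release M21, which held 31011 of 31053 identifiers.

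UMIs were summed over the cells of a group and scaled to its total (CPM). Ratios carry exact conditional binomial 95% intervals, shares exact Clopper-Pearson intervals. Both cover counting error only. The members, the 27 gene lists and the alternatives were chosen with earlier results of these data known. Named genes are the 15 highest and 15 lowest ratios outside the gate, without sex-linked, ribosomal protein or mitochondrial genes and gene models, and up to 8 measured genes of highest level in each list; the text says where a gene was chosen otherwise, and 2 genes are not reported here. Of lists not described in the report, 1 megakaryocyte gene and 1 basophil or eosinophil gene were measured, both neither higher nor lower, and 0 neutrophil and 0 macrophage genes. In the granulocyte-monocyte list 4 of 4 measured genes were lower, in the lymphoid list 2 of 4 were higher (Bst2 and Cd74), and Xist, the only measured gene of the sex-linked list, was neither.

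On simulated counts for this comparison, the interval held the true ratio for 95.0% of 6749 unchanged genes, of which 0.133% were called. The simulation drew each gene's summed count with counting error only, without spread between cells and without choosing cells by their values. It therefore checks the interval's computation, and 0.133% is no rate of false calls in the real cells. Of 50 genes per size, 54% were called at 1.5-fold, 98% at 2-fold and 100% at 4-fold. Python 3.11.15, numpy 2.4.6, scipy 1.17.1 and pandas 2.3.3 were used.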

Additional observations from a re-analysis of the deposited data

How the results depend on the processing

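The interferon lists outside the gate were higher under each alternative that recomputed their sum; the log2 ratio of their sum was 1.05 as reported. Moving the gate to 200 CPM gave 435 cells, 73 higher and 5 lower genes and a sum at 0.72; at 800 it gave 71 cells, 204 and 122 genes, and 1.32. Without Isg15 in the gate there were 58 cells, 280 and 196 genes, and 1.37. Fewer cells in the smaller group leave wider counting error in each gene. The sum was 1.08 with at least 2 Klf1 UMIs, 1.01 with each cell weighted equally (28 genes lower), 1.08 with median gene scaling, 0.97 with other cells weighted to the same depth, 1.14 against other cells under 100 CPM, and 1.00 without the 5 cells of highest gating sum. Leaving out cells with myeloid UMIs gave 8 lower genes. A mean of at least 50 CPM gave 40 higher and 0 lower genes, at least 1 CPM 461 and 311, and a 2-fold line 74 and 4. With each gene's top cell left out, an alternative chosen after seeing the data, 29 genes were lower.

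Few directions turned. Fcer1g had a log2 ratio of 0.067 at the gate of 200, and Mpo 0.17 without myeloid cells, a filter that counts Mpo itself. Cd74 and H2-Ab1 were −1.74 and −0.51 at the gate of 800, and −1.38 and −0.15 without Isg15; both genes had 0 UMIs in the gated cells there, so these values set the floor of 3 UMIs against the other cells and are no measured ratios. Cd74 and H2-Ab1 were −0.46 and −0.044 with at least 2 Klf1 UMIs, and −1.05 and −0.16 both without the cell that held the class II UMIs (also chosen after seeing the data) and without each gene's top cell. For the class II genes, that 1 cell moves to the other cells at the gate of 800 and without Isg15, and is left out under the other settings; for Fcer1g the cause was not tested. Of 57 named genes past 1.5-fold, 43 at the gate of 200 to 57 without the 5 highest cells remained past it in the same direction. No paired analysis was possible because each treatment has 1 library.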
